A study of Mus musculus with 28 samples.

Results

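Normal basal and luminal cells of the mouse mammary gland were compared 10 months after tamoxifen, on 2 arrays of YFP-positive basal cells and 2 arrays of YFP-positive luminal cells out of 28 arrays in the series. The 4 arrays were taken by their titles, which name the gate, the Cre driver and the time, and the comparison was drawn across all genes. The series follows what the mutant PI3-kinase PIK3CA-H1047R does to basal and luminal mammary cells and to the tumours they form. Cells without the mutant are the reference for both layers. Basal cells came from K5CREERT2/RosaYFP mice, in which the keratin 5 promoter drives a tamoxifen-dependent Cre recombinase that switches on YFP. Luminal cells came from K8CREERT2/RosaYFP mice, in which the keratin 8 promoter drives it. The gate and the mouse line therefore changed together and cannot be told apart here. Females were given tamoxifen 3 times, 5 mg each, from an age of 4 to 5 weeks, the glands were digested with collagenase and hyaluronidase, and single cells were sorted before RNA extraction on a micro column. Cells of the same lines taken at 8 weeks, and PIK3CA-H1047R cells of K5CREERT2 mice taken at 10 months (called K5PIK here), serve below as points of reference, with 2 arrays per group. The labels do not say that replicates came from separate animals, nor whether animals were pooled. The p-values rest on the spread within groups, pooled over 16 sorted arrays in 8 groups. Besides the groups above, these include cells of both gates from K8CREERT2 mice with PIK3CA-H1047R, taken at 8 weeks. The number of arrays limits the precision.

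The mammary duct has an inner layer of luminal cells and an outer layer of basal, or myoepithelial, cells. Luminal cells line the lumen, are sealed by tight junctions, carry the receptors for oestrogen and progesterone in some of them, and make milk. Basal cells contain smooth muscle proteins with which they expel milk, rest on the basement membrane through hemidesmosomes, and send signals to the luminal layer. Both layers arise from common progenitors in the embryo and are maintained mostly by their own progenitors in the adult.

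The lineages were far apart on the arrays. Replicates correlated across genes at 0.993 for luminal and 0.986 for basal cells, and arrays of different gates at 0.837 to 0.870. Values are log2 expression values as deposited, and differences are basal minus luminal, so that a positive difference means more RNA in basal cells. Of 13150 genes tested with limma, 2320 (17.6%) were higher in basal cells and 3393 (25.8%) lower at a Benjamini-Hochberg adjusted p under 0.05, which makes 43.4% called in either direction. At least 2-fold differences were called for 1244 genes higher (9.46%) and 1798 lower (13.7%), together 23.1%. At larger folds the balance turned, with 439 higher and 399 lower at 4-fold or more, and 64 higher and 27 lower at 16-fold or more. The differences ran from -5.12 to 6.20, with a median of -0.12 over all genes. The basal and luminal replicates did not overlap in 78.3% of all genes, so separation of the arrays alone marks no gene. The total of 5713 calls was 3539 without YFP basal replicate 1 and 3622 without YFP luminal replicate 2, and the 3042 calls of at least 2-fold stayed between 2497 and 3225 without single arrays.

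For the genes lower in basal cells, the basal arrays differed between themselves in the direction of the luminal cells. Among the 1798 genes called lower by at least 2-fold, basal replicate 2 lay above basal replicate 1 in 1590 (88.4%), by a median of 0.34. Among the 1244 called higher by at least 2-fold it lay above in 703 (56.5%), by a median of 0.05. Over all genes tested it lay above in 63.3%, by a median of 0.09. Markers of endothelial and immune cells, given below, were also higher on basal replicate 2. In such sorted bulk samples, fewer cells of a type and less RNA per cell cannot be told apart.

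Keratins, the intermediate filament proteins that define the layers, followed the gates with an exception on each side. Basal keratins had 4 of 5 tested members higher and luminal keratins 4 of 5 lower, with list medians of 2.62 and -1.72. Krt5 was at 11.45 and 11.54 on the basal arrays and 6.90 and 7.37 on the luminal arrays (difference 4.36 ± 0.32, limma adjusted p = 1.38e-06). Krt14, its filament partner, was at 11.87 and 11.92 against 7.20 and 7.60 (4.50 ± 0.31). Both were high on both basal arrays, far above the luminal ones. On the luminal side Krt8 was at 12.02 and 12.12 on the luminal arrays and 10.78 and 11.17 on the basal arrays (-1.10 ± 0.17, adjusted p = 0.000382). Its partner Krt18 was at 11.67 and 11.70 against 9.63 and 10.29 (-1.72 ± 0.27) and Krt19 at 11.79 and 11.81 against 8.48 and 9.76 (-2.68 ± 0.39). Each was lower on both basal arrays, and basal replicate 2 was the nearer to the luminal arrays. Krt7 fell most among luminal keratins, at 6.40 and 7.86 on the basal arrays against 10.89 and 11.02 (-3.83 ± 0.44).

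The exceptions were large. Krt6a, listed with the basal keratins because stratified epithelia use it, was at 10.15 and 10.53 on the luminal arrays and only 6.61 and 6.22 on the basal arrays (-3.92 ± 0.56, limma adjusted p = 0.000193). Krt23, listed with the luminal keratins, was at 8.00 and 8.07 on the basal arrays and 4.65 and 4.76 on the luminal arrays (3.34 ± 0.28, adjusted p = 3.13e-06). Neither gene had overlapping arrays, as held for 78.3% of all genes. Krt15 (1.22 ± 0.36) and Krt16 (2.62 ± 0.55) rose with the basal layer, although the adjusted p of Krt15 was 0.0518 without luminal replicate 1, 0.0893 without luminal replicate 2 and 0.108 without basal replicate 2. The surface proteins by which such gates are often drawn differed less, and were looked up after the other values were known: Itgb1 (0.65 ± 0.16) and Itga6 (0.89 ± 0.14) were higher and Cd24a (-0.76 ± 0.17) and Epcam (-0.80 ± 0.19) lower in basal cells. Itgb1 had adjusted p = 0.0552 without luminal replicate 2 and Epcam 0.0504 without basal replicate 1. The labels do not name the antibodies used.

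**Figure D1:**
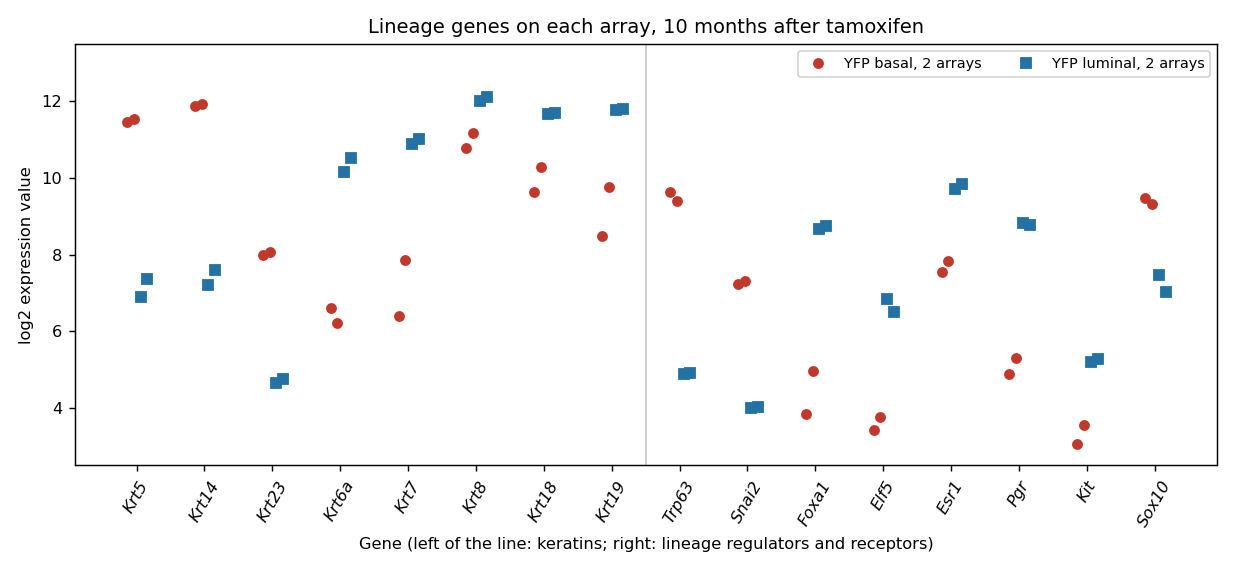
Log2 expression values (vertical axis) of 8 keratins and 8 lineage regulators or receptors (horizontal axis) on the 2 YFP basal arrays (circles) and the 2 YFP luminal arrays (squares) at 10 months, with 1 point per array. Krt6a is higher in luminal and Krt23 in basal cells, against the lists they belong to. The groups do not overlap for any of the 16 genes, which also holds for 78.3% of all genes tested.

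Transcription factors of the basal layer were higher almost as a block. Of 11 tested, 10 were higher, 0 were lower, and the list median was 3.26. Trp63, the p53 relative that basal epithelium requires, was at 9.64 and 9.41 on the basal arrays and 4.87 and 4.92 on the luminal arrays (4.63 ± 0.31, limma adjusted p = 8.38e-07). Snai2 was at 7.23 and 7.32 against 4.00 and 4.02 (3.27 ± 0.16), with each pair of arrays close together. Further factors that rose were Bnc1, which is found in keratinocytes (3.98 ± 0.28), Irx4 (3.44 ± 0.34), Id4, an inhibitor of other helix-loop-helix factors (3.34 ± 0.34), and Egr2 (3.26 ± 0.33). Srf, the serum response factor that switches on contractile genes together with its co-activators, was at 9.77 and 9.68 on the basal arrays against 9.64 and 9.78 and did not differ beyond its error (0.01 ± 0.23, adjusted p = 0.969).

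Luminal transcription factors were mixed, with 9 of 18 tested lower in basal cells, 1 higher, and a list median of -0.85. Foxa1, which opens chromatin for the oestrogen receptor, was at 8.67 and 8.74 on the luminal arrays and 3.84 and 4.96 on the basal arrays (-4.30 ± 0.39, limma adjusted p = 6.38e-06). Elf5, the factor of alveolar and progenitor cells, was at 6.85 and 6.50 against 3.43 and 3.75 (-3.09 ± 0.28), and its epithelial ETS relatives Ehf (-2.87 ± 0.49) and Elf3 (-2.81 ± 0.27) fell with it. So did Grhl1 (-2.05 ± 0.34) and Tfcp2l1 (-1.97 ± 0.28). These factors separated all arrays by gate, as did 78.3% of all genes. Gata3 and Tbx3, both known as luminal regulators, were named after their values were seen because they did not follow: Gata3 was at 7.01 and 6.99 on the basal and 7.20 and 6.52 on the luminal arrays (0.14 ± 0.25, adjusted p = 0.68). Tbx3 was at 8.00 and 7.93 against 7.84 and 7.94 (0.07 ± 0.21, adjusted p = 0.801). Grhl2 (0.43 ± 0.21) and Ovol2 (0.42 ± 0.25), guardians of epithelial identity, also did not pass the test. Cebpb, needed for alveolar development, was the member that rose (0.92 ± 0.19, adjusted p = 0.00233).

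The largest differences of all were rises in basal cells. The 15 largest rises lay between 5.24 and 6.20. The cell surface protein Tenm2 was at 10.64 and 10.45 on the basal arrays against 4.24 and 4.46 (6.20 ± 0.31, limma adjusted p = 1.18e-07). Gfra1, a co-receptor for the neurotrophic factor GDNF, was at 9.75 and 9.76 against 3.62 and 3.88 (6.01 ± 0.55). The basal arrays were thus high and the luminal ones near the low end of the scale, since both luminal values of Gfra1 lay at or under the 40th percentile of their arrays, which was 3.94 to 3.99. The same held for Wif1 and Lgr5 and for no other of the 15. Further members were the pentraxin Ptx3 (5.57 ± 0.40), the hyaluronan synthase Has2 (5.27 ± 0.57), the mucin-type glycoprotein Pdpn (5.85 ± 0.67), the sodium channel family gene Scn7a (5.54 ± 0.39), Lhfp (5.61 ± 0.46) and Ecrg4 (5.24 ± 0.21). The chemokine Cxcl12, the IGF-binding protein Igfbp3, Mylk, Myh11 and Col17a1 complete the list and are described with their groups.

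The 15 largest falls lay between -5.12 and -4.37. Ctse, the aspartic protease cathepsin E, was at 8.10 and 8.50 on the luminal arrays and 2.96 and 3.38 on the basal arrays (-5.12 ± 0.81, limma adjusted p = 0.000378). Its basal values were the only ones among the 15 that both lay at or under the 40th percentile. The iodide transporter Slc5a5, which concentrates iodide for milk, was at 10.62 and 10.84 against 5.87 and 6.16 (-4.71 ± 0.49). The tryptophan-degrading enzyme Ido1 was at 7.97 and 8.80 against 3.73 and 3.97 (-4.53 ± 0.67). Other large falls were those of the tetraspanins Tspan33 (-4.61 ± 0.36) and Tspan1 (-4.40 ± 0.35), the angiotensin receptor Agtr1a (-4.43 ± 0.64), the fibrinogen chain Fgb (-4.49 ± 0.94), Nipal1 (-4.60 ± 0.42), Tlcd4 (-4.62 ± 0.48), AW112010 (-4.50 ± 0.68), Plac8 (-4.42 ± 0.26) and Bex1 (-4.37 ± 0.62). On all 4 arrays the groups were separate for each of these genes, which the rule for naming them required. Genes named elsewhere in this report also had both values of their lower layer at or under the 40th percentile. In luminal cells these included Wnt10a, Fgf2, Vcan, Irx4, Bnc1, Col5a2, Ereg, Il6 and Slit2. In basal cells they included Elf5, Kit, Pkp2, Tfcp2l1, Btc, Bmpr1b and Gabrp. Their differences are measured from the low end of the scale.

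**Figure D2:**
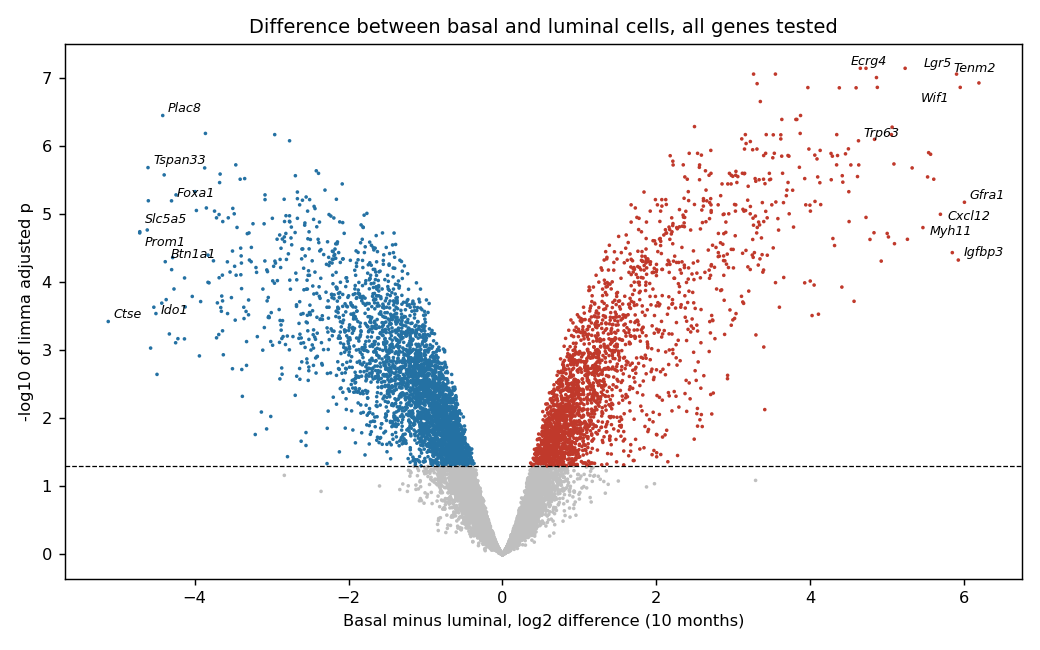
Each point is 1 of the 13150 genes tested, with the basal minus luminal log2 difference at 10 months on the horizontal axis and -log10 of the limma adjusted p on the vertical axis. Red points are the 2320 genes called higher and blue points the 3393 called lower, the dashed line is the threshold of 0.05, and the higher arm reaches 6.20 while the lower arm ends at -5.12.

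Contractile genes, which give myoepithelial cells their smooth muscle properties, were higher in 14 of 16 tested and lower in 0, with a list median of 3.16. Mylk, the kinase that starts contraction by phosphorylating the myosin light chain, was at 11.50 and 11.40 on the basal and 5.95 and 5.90 on the luminal arrays (5.53 ± 0.45, limma adjusted p = 2.84e-06). The smooth muscle myosin Myh11 was at 11.55 and 11.37 against 5.70 and 6.29 (5.47 ± 0.56) and the light chain Myl9 at 9.86 and 10.52 against 5.64 and 5.88 (4.43 ± 0.37). These 3 genes were high on both basal arrays. Tropomyosin Tpm2 (4.38 ± 0.23), smooth muscle actin Acta2 (4.32 ± 0.48) and calponin Cnn1 (3.94 ± 0.36) rose with them. Desmin (Des, 0.24 ± 0.18) and the phosphatase inhibitor Ppp1r14a (-0.17 ± 0.34) did not pass the test. Des lay at or under the 40th percentile on both luminal arrays and 1 basal array. Pericytes also contain these proteins, and their mean marker level was 5.88 and 6.77 on the basal arrays against 5.81 and 5.85 on the luminal arrays. The part of pericytes in the contractile result was not tested. Of the 16 contractile genes, 11 were higher on basal replicate 2 than on basal replicate 1.

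The promoters of 2 contractile genes are shown because Srf binds the CArG box, a motif typical of smooth muscle genes, and these members moved together while Srf itself did not. The sequences are the 250 bases before the RefSeq start on GRCm38.p6, on the gene's own strand, with a CArG box in capitals. Myl9 is at chr2:156775214-156775463 on the plus strand and Acta2 at chr19:34255374-34255623 on the minus strand.
Myl9: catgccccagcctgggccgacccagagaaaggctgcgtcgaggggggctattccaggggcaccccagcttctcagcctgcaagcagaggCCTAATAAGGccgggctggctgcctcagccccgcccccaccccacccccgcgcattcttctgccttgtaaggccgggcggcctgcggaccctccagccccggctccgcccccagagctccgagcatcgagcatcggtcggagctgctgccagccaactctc
Acta2: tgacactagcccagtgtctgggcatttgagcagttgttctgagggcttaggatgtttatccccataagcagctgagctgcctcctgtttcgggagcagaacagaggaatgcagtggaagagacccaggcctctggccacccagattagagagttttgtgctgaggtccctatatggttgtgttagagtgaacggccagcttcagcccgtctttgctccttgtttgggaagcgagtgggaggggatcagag
The Myl9 promoter had a CArG box 161 to 152 bases before the start, and that of Acta2 had no exact match in this window. Both strands were searched for the exact motif CCWWWWWWGG, where W is A or T, without overlap with other motifs being considered. Near matches were not counted. The Acta2 sequence holds ccctatatgg and ccttgtttgg, each 1 letter off this pattern, so the search does not show that Acta2 lacks such a box. Of 18 listed contractile genes 15 had a promoter in the table and 1 of them, Myl9, held a match in the 300 bases around the start, against 1.81% of 27025 genes with a promoter. A match is a description of the letters only.

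Genes that hold basal cells to the basement membrane were higher in 14 of 17 tested and lower in 0, with a list median of 2.71. Col17a1, a transmembrane collagen of the hemidesmosome, was at 10.67 and 10.50 on the basal arrays and 5.06 and 5.46 on the luminal arrays (5.33 ± 0.41, limma adjusted p = 2.1e-06). The laminin chain Lama3 was at 10.96 and 10.76 against 6.35 and 6.37 (4.50 ± 0.39) and the type IV collagen Col4a2 at 9.98 and 9.99 against 5.99 and 5.30 (4.34 ± 0.33). These components of both the anchor and the membrane were high on both basal arrays. The anchoring fibril collagen Col7a1 (3.41 ± 0.29), nidogen Nid1 (3.11 ± 0.44) and the laminin chain Lamb1 (2.91 ± 0.35) rose too. Plec (-0.40 ± 0.19), Cd151 (0.33 ± 0.20) and Lamb2 (0.36 ± 0.31), all also used outside hemidesmosomes, did not pass.

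Integrins outside the hemidesmosome were higher in 6 of 10 tested and lower in 1, with a median of 0.65, and 3 were higher without luminal replicate 2. Itga9, a receptor for tenascin, was at 7.54 and 8.01 on the basal arrays and 4.26 and 3.97 on the luminal arrays (3.65 ± 0.33, limma adjusted p = 6.79e-06). Itga3, a laminin receptor subunit (2.17 ± 0.26), and Itga1, a collagen receptor subunit (1.74 ± 0.35), rose less. Itgb6, the epithelial subunit that activates latent TGF-beta, went the other way, at 8.15 and 7.78 on the luminal arrays and 4.45 and 5.39 on the basal arrays (-3.04 ± 0.47, adjusted p = 0.000329). Itga2 (-0.20 ± 0.41) and Itgav (-0.33 ± 0.22) did not pass.

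Genes of the fibrillar matrix were higher in 11 of 17 tested and lower in 1, with a median of 2.16. Vcan, a large proteoglycan, was at 8.55 and 8.34 on the basal and 3.58 and 3.56 on the luminal arrays (4.87 ± 0.26, limma adjusted p = 1.38e-07). Postn, an adhesive matrix protein, was at 10.06 and 10.22 against 5.42 and 5.13 (4.86 ± 0.24). The collagens Col5a2 (4.13 ± 0.29), Col5a1 (4.00 ± 0.38) and Col3a1 (3.41 ± 0.87) and the proteoglycan Bgn (4.05 ± 0.54) rose as well. Col3a1 had adjusted p = 0.0555 without basal replicate 2. Against the list, Col6a3 was at 4.27 and 6.20 on the basal and 7.47 and 8.24 on the luminal arrays (-2.62 ± 0.82), with adjusted p = 0.129 without luminal replicate 2 and 0.215 without basal replicate 1. Dcn (-1.12 ± 0.52) and Tnc (0.26 ± 0.54) did not pass. Fibroblasts make most of these proteins, and their mean marker level was 5.52 and 5.94 on the basal arrays against 4.63 and 4.52 on the luminal arrays. Of 7 fibroblast markers 1 was higher, Col14a1 (4.73 ± 0.46), and 0 were lower. On the 4 arrays of this contrast alone, 4 of 4 tested were higher. The part of fibroblasts in the matrix result was not tested.

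Tight junction and polarity genes were the list with the lowest median of those drawn, at -2.62, with 13 of 15 tested lower and 0 higher. Ocln, the gene of occludin, was at 8.80 and 8.89 on the luminal arrays and 4.98 and 5.55 on the basal arrays (-3.57 ± 0.54, limma adjusted p = 0.000289). The claudins, which form the seal, fell alike: Cldn3 was at 10.37 and 10.55 against 6.55 and 7.76 (-3.30 ± 0.50), Cldn4 at -3.01 ± 0.45 and Cldn7 at -2.87 ± 0.58. Marveld2, of tricellular junctions (-2.88 ± 0.32), and cingulin, Cgn (-2.77 ± 0.28), fell too. Basal replicate 2 was above basal replicate 1 in 11 of the 15 genes, and still below the luminal arrays in those that fell. The scaffold Tjp1 (0.09 ± 0.19) and Patj (0.17 ± 0.15) did not pass. Patj lay at or under the 40th percentile on both arrays of each layer.

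Cadherins and desmosome genes divided, with 4 of 13 tested higher and 4 lower, against 17.6% and 25.8% of all genes. P-cadherin, Cdh3, was at 9.90 and 9.46 on the basal arrays and 5.22 and 5.57 on the luminal arrays (4.29 ± 0.31, limma adjusted p = 1.41e-06). N-cadherin, Cdh2, rose by less (1.78 ± 0.24). E-cadherin, Cdh1, named after its value was seen, was at 8.69 and 8.57 on the basal arrays against 8.79 and 8.80 and did not pass (-0.16 ± 0.29, adjusted p = 0.672). Among desmosome genes the plakophilins were exchanged: Pkp1 was at 10.45 and 10.43 on the basal and 7.98 and 7.75 on the luminal arrays (2.57 ± 0.33), and Pkp2 at 2.97 and 3.38 against 6.93 and 6.91 (-3.74 ± 0.36). Dsc2 (-2.50 ± 0.38) and Dsg2 (-1.41 ± 0.21) were lower in basal cells with Pkp2.

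Genes known from the transition of epithelial to mesenchymal cells were higher in 6 of 9 tested and lower in 0, with a median of 0.89. Without luminal replicate 2, or without basal replicate 2, 3 were higher. The intermediate filament Vim was at 10.51 and 10.76 on the basal and 6.97 and 7.12 on the luminal arrays (3.59 ± 0.37, limma adjusted p = 1.72e-05), and the matrix protease Mmp2 at 10.16 and 10.43 against 5.14 and 5.25 (5.10 ± 0.56). Snai1 (0.49 ± 0.26) and Twist1 (0.09 ± 0.21), which drive that transition in other settings, did not pass. Both Vim and Mmp2 are also abundant in stromal cells, whose marker levels are given below.

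**Figure D3:**
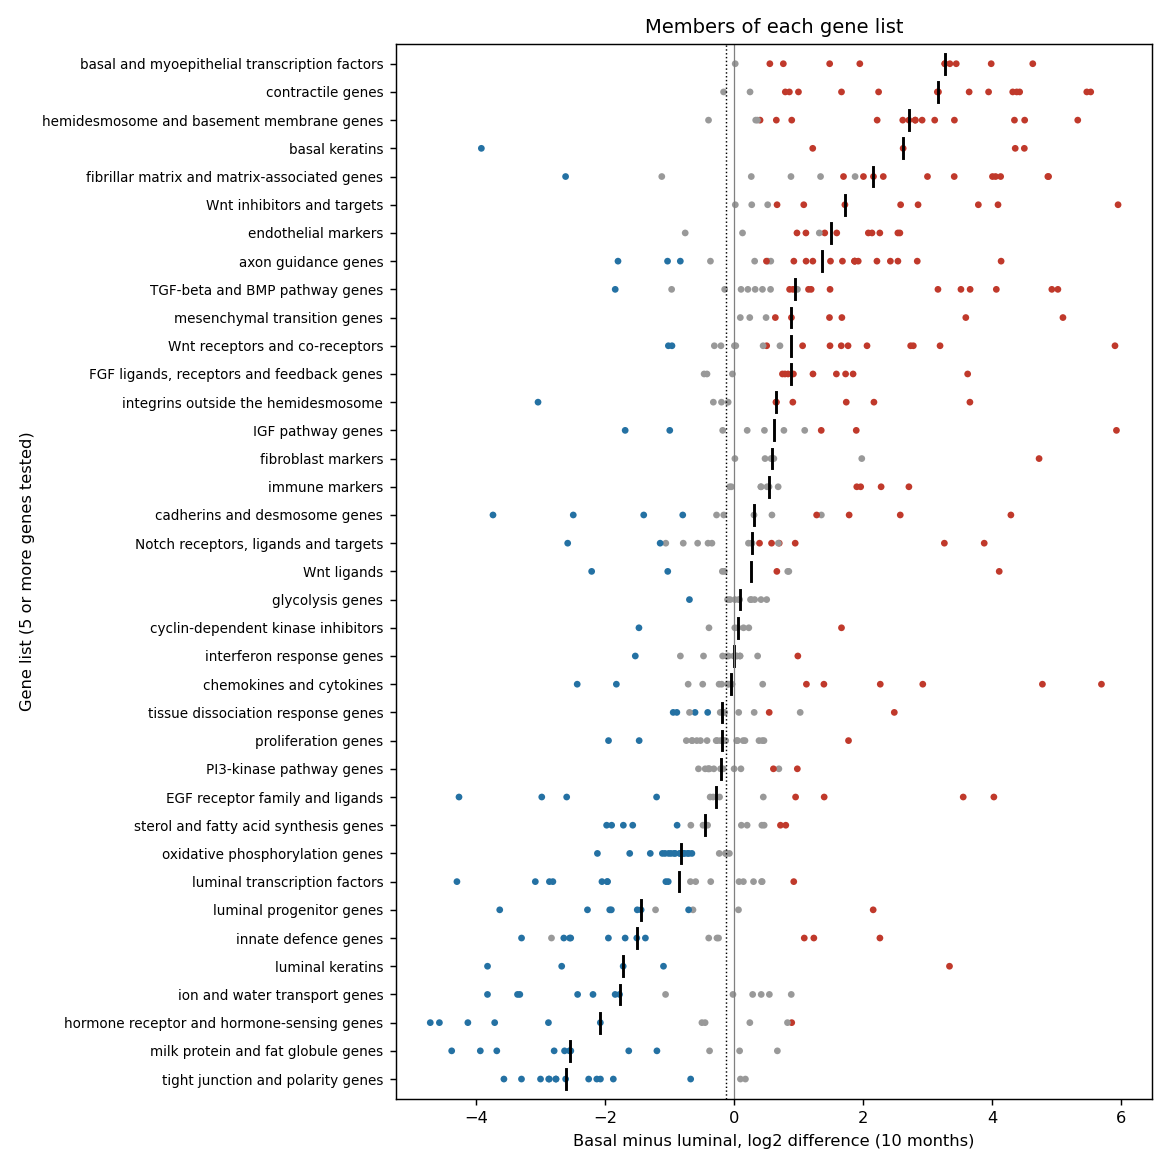
Points are the basal minus luminal log2 differences at 10 months (horizontal axis) of the members of each gene list with 5 or more genes tested (vertical axis, ordered by median), red where called higher, blue where called lower and grey where the test was not passed. Black bars are list medians, from 3.26 for basal transcription factors to -2.62 for tight junction genes, and the dotted line is the median of all genes, -0.12.

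Hormone receptors and genes of hormone-sensing cells were lower in 6 of 11 tested and higher in 1, with a median of -2.08. The progesterone receptor Pgr was at 8.83 and 8.77 on the luminal arrays and 4.88 and 5.30 on the basal arrays (-3.72 ± 0.64, limma adjusted p = 0.000657). The oestrogen receptor Esr1 was at 9.71 and 9.84 against 7.56 and 7.83 (-2.08 ± 0.33). Each was lower on both basal arrays, and the basal values of Esr1 stayed well above the 40th percentile. Prom1, a surface marker of these cells (-4.72 ± 0.50), Cxcl15 (-4.57 ± 0.83), the co-activator Cited1 (-4.13 ± 0.53) and Wnt4, the Wnt through which progesterone acts (-2.88 ± 0.35), fell with them. Greb1, an oestrogen-induced gene (0.82 ± 0.36), and Tff3 (0.24 ± 0.16) did not pass.

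Luminal progenitor genes were lower in 7 of 11 tested and higher in 1, with a median of -1.45. The lower members were 4 without luminal replicate 1 and 3 without basal replicate 1. Kit, the receptor for stem cell factor, was at 5.20 and 5.29 on the luminal arrays and 3.07 and 3.55 on the basal arrays (-1.93 ± 0.30, limma adjusted p = 0.000324). Atp6v1b1, a proton pump subunit, fell more (-3.64 ± 0.52), and the GABA receptor subunit Gabrp fell too (-1.51 ± 0.31). Sox10, a neural crest factor also used by mammary progenitors, went against the list, at 9.48 and 9.32 on the basal arrays and 7.47 and 7.02 on the luminal arrays (2.15 ± 0.26, adjusted p = 4.78e-05, and 0.168 in the fit of all 28 arrays). Its luminal values lay well above the 40th percentile of the arrays.

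Milk protein and fat globule genes were lower in basal cells in 10 of 13 tested, with 0 higher and a median of -2.55. Btn1a1, a protein of the milk fat globule, was at 10.20 and 10.04 on the luminal arrays and 4.92 and 6.56 on the basal arrays (-4.38 ± 0.53, limma adjusted p = 5.01e-05). The casein gene Csn1s1 was at 9.62 and 9.33 against 4.93 and 6.14 (-3.94 ± 0.74) and Lalba, needed for lactose, at 9.26 and 8.92 against 5.17 and 5.64 (-3.68 ± 0.36). Basal replicate 2 was the higher basal array in 12 of the 13 genes. The mucin Muc1 fell (-2.63 ± 0.56), while Wap (-0.38 ± 0.18), Glycam1 (0.67 ± 0.73) and Lpo (0.08 ± 0.21) did not pass. Lpo lay at or under the 40th percentile on both arrays of each layer, and Glycam1 on both luminal arrays and 1 basal array. Csn2 depended on the probe set and on single arrays: the probe set used gave -2.79 ± 0.99, another one 0.76, and its adjusted p was 0.149 without luminal replicate 1, 0.0915 without luminal replicate 2, 0.181 without basal replicate 1 and 0.0656 without basal replicate 2.

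Genes of innate defence, which protect the gland and the milk, were lower in 8 of 15 tested and higher in 3, with a median of -1.51. The whey acidic protein family gene Wfdc2 was at 10.57 and 10.89 on the luminal arrays and 6.90 and 7.96 on the basal arrays (-3.30 ± 0.47, limma adjusted p = 0.000183). Lactoferrin, Ltf (-2.64 ± 0.42), and the immunoglobulin transporter Pigr (-2.54 ± 0.40) fell as well. The protease inhibitor Slpi rose, at 11.40 and 11.41 on the basal arrays against 9.22 and 9.08 (2.26 ± 0.40, adjusted p = 0.000829). Among ion and water transport genes 7 of 13 tested were lower and 0 higher, against 25.8% and 17.6% of all genes. The water channel Aqp5 was at 9.24 and 9.67 on the luminal and 5.49 and 5.76 on the basal arrays (-3.83 ± 0.50), and the glucose transporter Slc5a1 (-3.36 ± 0.50), carbonic anhydrase Car2 (-3.33 ± 0.66) and the sodium channel subunits Scnn1a (-2.43 ± 0.42) and Scnn1b (-2.19 ± 0.22) fell. The third subunit Scnn1g did not pass (0.54 ± 0.21), nor did the water channel Aqp3 (0.88 ± 0.41).

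Wnt pathway genes were divided by role. Of 8 Wnt ligands tested 2 were higher and 2 lower, against 17.6% and 25.8% of all genes. Wnt10a was at 7.71 and 7.80 on the basal arrays and 3.68 and 3.61 on the luminal arrays (4.11 ± 0.63, limma adjusted p = 0.000295), and Wnt7b at 5.92 and 6.43 against 8.32 and 8.45 (-2.21 ± 0.26). Basal cells therefore had more of the first ligand and luminal cells more of the second, beside the Wnt4 named above. Receptors were higher in 10 of 18 tested and lower in 2. Lgr5, a receptor for the Wnt-enhancing R-spondins, was at 8.95 and 8.84 against 2.92 and 3.05 (5.90 ± 0.28), and its relative Lgr4 was at 3.19 ± 0.39. The Frizzled receptors Fzd1 (2.78 ± 0.31) and Fzd7 (2.74 ± 0.43) and the co-receptor Lrp6 (2.06 ± 0.22) rose, and Fzd6 fell (-0.97 ± 0.18). Secreted inhibitors and targets were higher in 8 of 11 tested and lower in 0. The inhibitors Wif1 (5.95 ± 0.31), Sfrp1 (4.09 ± 0.30) and Dkk3 (3.78 ± 0.39) were among the highest, and Procr, a surface protein induced by Wnt, rose by less (2.58 ± 0.58). The widely used target genes Axin2 (0.52 ± 0.26) and Nkd1 (0.02 ± 0.23) did not pass.

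Among Notch pathway genes the ligands Dll1 and Jag1 were higher on the basal side and the receptor Notch3 on the luminal side. Of 17 tested 6 were higher and 2 lower, against 17.6% and 25.8% of all genes. The ligand Dll1 was at 9.47 and 9.34 on the basal arrays and 5.49 and 5.56 on the luminal arrays (3.88 ± 0.23, limma adjusted p = 3.56e-07), and Jag1 at 11.12 and 10.88 against 7.67 and 7.81 (3.26 ± 0.32). The receptor Notch3 was at 9.37 and 9.40 on the luminal arrays and 6.26 and 7.34 on the basal arrays (-2.58 ± 0.32, adjusted p = 6.24e-05). The groups did not overlap for these genes, as for 78.3% of all genes. The target Heyl did not pass (-1.06 ± 0.50). The higher genes numbered 3 without luminal replicate 1 and 2 without basal replicate 2.

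The EGF family also divided by gene, with 4 of 12 tested higher (2 without luminal replicate 2) and 4 lower. Over all genes the shares were 17.6% higher and 25.8% lower. The ligands Ereg (4.03 ± 0.62) and Nrg1 (3.55 ± 0.47) were higher in basal cells, Nrg1 at 8.68 and 8.29 against 4.97 and 4.91. The ligands Epgn (-4.27 ± 0.58) and Btc (-2.60 ± 0.23) and the neuregulin receptor Erbb3 were lower, Erbb3 at 5.67 and 6.53 on the basal against 8.98 and 9.20 on the luminal arrays (-2.99 ± 0.39, limma adjusted p = 9.57e-05). A ligand, Nrg1, and its receptor, Erbb3, were thus higher in different layers. FGF pathway genes were higher in 9 of 12 tested and lower in 0. Fgf2 was at 6.82 and 6.72 against 3.14 and 3.16 (3.62 ± 0.24), and the feedback phosphatase Dusp6 (1.84 ± 0.23) and the factor Etv5 (1.73 ± 0.26), both induced by FGF signals, rose. The receptor Fgfr2 (-0.47 ± 0.30) and the ligands Fgf1 (-0.42 ± 0.27) and Fgf10 (-0.03 ± 0.17) did not pass. Fgf10 lay at or under the 40th percentile on both arrays of each layer.

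TGF-beta and BMP genes were higher in 11 of 20 tested and lower in 1. The activin-binding protein Fst was at 10.90 and 10.80 on the basal arrays and 5.77 and 5.89 on the luminal arrays (5.02 ± 0.54, limma adjusted p = 2.16e-05), with Fstl1 at 4.92 ± 0.59. The co-receptor Tgfbr3 (4.06 ± 0.37), the latent TGF-beta binding proteins Ltbp4 (3.66 ± 0.47) and Ltbp2 (3.52 ± 0.26), and the ligand Bmp7 (3.16 ± 0.20) rose. The receptor Bmpr1b was lower, at 3.27 and 3.40 on the basal and 5.15 and 5.21 on the luminal arrays (-1.85 ± 0.29). A ligand and a receptor again lay on opposite sides. Of 10 IGF pathway genes 3 were higher and 2 lower, against 17.6% and 25.8% of all genes. The binding protein Igfbp3 was at 11.50 and 11.43 against 5.70 and 5.38 (5.93 ± 0.70), the receptor Igf1r rose by less (1.35 ± 0.18), and Igf2 was lower in basal cells (-1.69 ± 0.34).

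Genes of the PI3-kinase pathway, in which the mutant enzyme of the series acts, were higher in 2 of 14 tested and lower in 0. Pik3ca, the gene of the normal catalytic subunit, was at 8.29 and 8.11 on the basal arrays and 7.63 and 7.55 on the luminal arrays (0.61 ± 0.17, limma adjusted p = 0.0107). Its adjusted p was 0.0706 without luminal replicate 2 and 0.0862 without basal replicate 1. Both called shares are below those of all genes, and the list median was -0.21 against -0.12 over all genes.

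Guidance molecules, first known from axons, were higher in 15 of 22 tested and lower in 3, with a median of 1.36. The lower ones were 1 without luminal replicate 1 and 1 without basal replicate 1. The semaphorin Sema5a was at 8.63 and 8.24 on the basal arrays and 4.44 and 4.15 on the luminal arrays (4.14 ± 0.38, limma adjusted p = 7.25e-06). The receptor Robo1 (2.84 ± 0.39) and its ligand Slit2 (1.92 ± 0.23), the ephrin receptor Epha4 (2.42 ± 0.30) and the semaphorin co-receptor Nrp2 (2.21 ± 0.32) rose as well. The netrins were exchanged, with Ntn4 at 7.96 and 8.54 on the basal arrays against 5.66 and 5.76 (2.54 ± 0.42) and Ntn1 at 5.26 and 6.41 against 7.67 and 7.60 (-1.80 ± 0.33). Chemokines and cytokines were higher in 6 of 16 tested and lower in 2, against 17.6% and 25.8% of all genes. Their list median was -0.06. Cxcl12 was at 10.17 and 10.43 against 4.65 and 4.57 (5.69 ± 0.55) and Cxcl14 at 11.74 and 11.76 against 6.79 and 7.15 (4.78 ± 0.52), so both homeostatic chemokines were high on the basal arrays. Il6 rose by less (2.92 ± 0.34), and the cytokine Tnf was lower (-2.44 ± 0.23).

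Oxidative phosphorylation genes, which encode the mitochondrial respiratory chain, were lower in 17 of 22 tested and higher in 0, with a median of -0.83. Sdha, a subunit of complex II, was at 9.51 and 9.49 on the luminal arrays and 7.02 and 7.73 on the basal arrays (-2.12 ± 0.36, limma adjusted p = 0.000616), and Ndufa9 of complex I at 9.37 and 9.23 against 7.33 and 8.02 (-1.62 ± 0.35). Ndufb8 (-1.30 ± 0.25) and Ndufa4 (-1.02 ± 0.23) fell too. Basal replicate 2 was the higher basal array in 20 of the 22 genes. The ATP synthase subunits Atp5a1 (-0.12 ± 0.17) and Atp5b (-0.13 ± 0.19) did not pass. Without basal replicate 1, 7 of the 22 were lower, and with the mean of the endothelial markers as a covariate 11. Of 11 glycolysis genes 0 were higher and 1 lower, and Gapdh (0.32 ± 0.14) and the glucose transporter Slc2a1 (0.41 ± 0.23) did not pass. In sterol and fatty acid synthesis, against 25.8% and 17.6% of all genes, 5 of 14 were lower and 2 higher. Without luminal replicate 1 the higher ones numbered 0, and without any other single array of the 4 they numbered 1. The desaturase Scd1 (-1.58 ± 0.34), the elongase Elovl6 (-1.98 ± 0.34) and the sterol enzymes Fdps (-1.90 ± 0.30) and Dhcr7 (-1.72 ± 0.31) fell.

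Few proliferation genes were called at 10 months in the fit of 16 arrays. Of 22 tested 1 was higher and 2 lower, against 17.6% and 25.8% of all genes, with a median of -0.19. On the 4 arrays of this contrast alone 7 of 20 were lower and 1 higher. On the 8 YFP arrays 4 of 22 were lower and 1 higher. The replication helicase subunit Mcm2 (-1.48 ± 0.31) and the mitotic kinase Aurka (-1.95 ± 0.33) fell and Mcm7, another subunit of the same helicase, rose (1.77 ± 0.28). Both basal values of Mcm2 lay at or under the 40th percentile of their arrays. At 8 weeks 11 of the 22 were lower in basal cells and 0 higher, with a median of -1.19, but the difference between the times was called for 0 of them, so no change with age was shown. Among cell cycle inhibitors Cdkn1c rose (1.66 ± 0.28) and Cdkn2b fell (-1.48 ± 0.21), and 5 of 7 did not pass. Genes known to respond to tissue dissociation were higher in 2 of 13 and lower in 4 (2 without any single one of the 4 arrays), with Socs3 (2.48 ± 0.41) highest and Jun (-0.95 ± 0.19) lowest. Over all genes the shares were 17.6% higher and 25.8% lower. Interferon response genes were higher in 1 of 13 and lower in 1, Ifih1 (-1.54 ± 0.24).

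Of the markers of other cell types that a basal gate can hold, those of endothelial cells were higher in 9 of 12 tested and lower in 0, with a median of 1.50. Without basal replicate 2, 1 was higher, without luminal replicate 1, 5, and without luminal replicate 2, 3. Their mean level was 6.07 and 7.06 on the basal arrays and 5.09 and 5.15 on the luminal arrays, and every one of the 12 was higher on basal replicate 2 than on basal replicate 1. The endothelial sialomucin Emcn was at 6.46 and 7.33 against 4.50 and 4.78 (2.26 ± 0.53, limma adjusted p = 0.00474). The endothelial cadherin Cdh5 was at 8.42 and 9.42 against 6.49 and 6.27 (2.54 ± 0.72), with adjusted p = 0.0709 without luminal replicate 2 and 0.0953 without basal replicate 2. Vwf (-0.76 ± 0.47), Egfl7 (0.13 ± 0.25) and Plvap (1.32 ± 0.58) did not pass. Immune markers were higher in 4 of 11 tested (1 without basal replicate 2 or luminal replicate 1, and 2 without luminal replicate 2), with H2-Aa of the antigen-presenting cells at 7.78 and 8.59 on the basal and 5.59 and 5.36 on the luminal arrays (2.71 ± 0.63). Of all genes tested 17.6% were higher and 25.8% lower, against 4 and 0 of these 11 immune markers. T cell Cd3g (-0.07 ± 0.25) and macrophage Csf1r (-0.04 ± 0.22) did not pass. Of 4 pericyte markers 2 were higher, among them Rgs5 (3.30 ± 0.56), and 1 was lower, Notch3. Without basal replicate 2 or either luminal array, 1 pericyte marker was higher. Of 7 fibroblast markers 1 was higher, against 17.6% of all genes. That count depended on the fit. On the 4 arrays of this contrast alone 4 of 4 tested were higher, and on the 8 YFP arrays 3 of 5. At 8 weeks 3 of the 7 were higher. The markers Pi16 and Fap lay at or under the 40th percentile on all 4 arrays. Erythroid means were 8.09 and 9.18 against 7.56 and 7.91, those of skeletal muscle lay between 3.62 and 3.92 on all 4 arrays, and 0 of 3 skeletal muscle markers passed.

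With the endothelial mean as a covariate the number of genes called in the whole comparison was 3328. Contractile and basement membrane genes then had 12 higher each and 0 lower, and tight junction and milk genes kept counts of 13 and 10 lower. Fibrillar matrix genes had 6 higher, mesenchymal genes 3, Wnt receptors 7 and Wnt inhibitors and targets 5. Whether these cell types shaped any single difference was not tested.

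**Figure D4:**
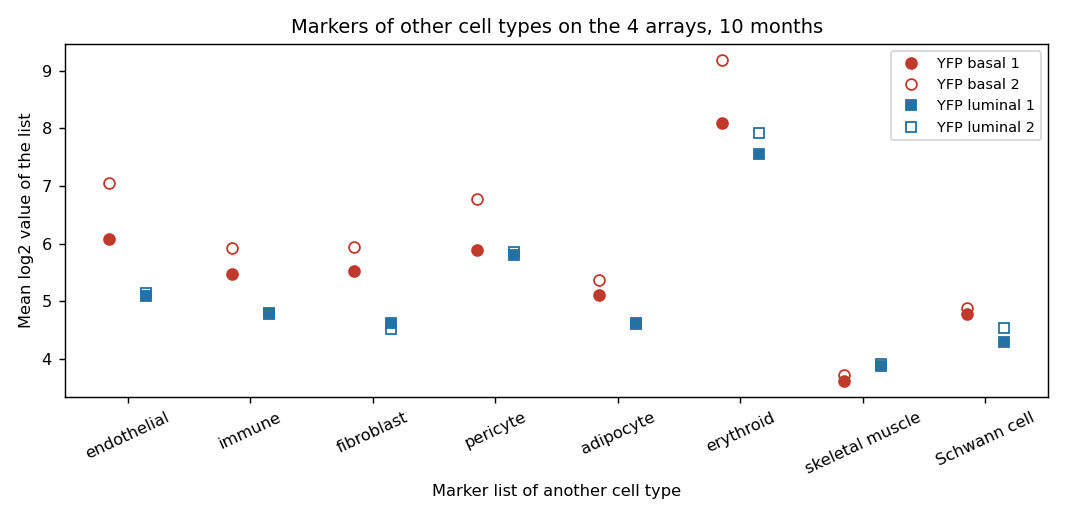
Mean log2 value (vertical axis) of the markers of 8 other cell types (horizontal axis) on each of the 4 arrays at 10 months, with circles for YFP basal and squares for YFP luminal and open symbols for replicate 2. The endothelial means are 6.07 and 7.06 on the basal arrays against 5.09 and 5.15 on the luminal arrays, and basal replicate 2 is the highest array in 7 of the 8 lists.

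The same lineage contrast at 8 weeks gives a reference for the same mouse lines. At 8 weeks 3987 genes (30.3%) were called, 1373 higher (10.4%) and 2614 lower (19.9%). Of the 2320 genes higher at 10 months 48.9% were also higher at 8 weeks, which is 82.6% of the 8-week genes, and 11 were lower. Of the 3393 lower genes 61.0% were also lower, or 79.2% of those at 8 weeks, and 6 were higher. All of the 15 largest rises and 13 of the 15 largest falls at 10 months were called in the same direction at 8 weeks. The groups at both times share no arrays.

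The test of the difference between the gaps called 7 genes (0.0532%), against 1654 at an unadjusted p under 0.05. Igf2, the fetal growth factor, was the only one among the listed genes. At 8 weeks it was higher in basal cells, at 7.12 and 7.61 against 5.49 and 6.11 on the luminal arrays, and at 10 months lower, at 6.27 and 6.86 against 8.13 and 8.39 (change of the gap -3.26 ± 0.48, limma adjusted p = 0.0363). The order of the layers was thus opposite at the 2 times, and neither pair of groups overlapped. Hepacam2 was at 5.79 and 5.85 on the luminal arrays at 10 months and 4.24 and 3.73 at 8 weeks, while basal arrays lay at 2.76 and 2.96 at 10 months against 3.07 and 3.40 at 8 weeks (-2.21 ± 0.27). Cntn1, a neuronal adhesion molecule (-1.95 ± 0.27), and the aldo-keto reductase Akr1c13 (-1.76 ± 0.25) changed in the same sense. At 8 weeks both were low in both layers, with basal and luminal means of 3.93 and 3.66 for Cntn1 and 4.13 and 4.01 for Akr1c13. The 40th percentile of the 8-week arrays was 3.89 to 3.99. At 10 months both genes were higher in luminal cells, and their basal values lay at or under the 40th percentile of their arrays.

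In the other sense, Brinp3 was at 6.28 and 6.93 on the basal arrays at 10 months against 3.30 and 3.74 at 8 weeks, while luminal arrays lay at 3.27 and 2.97 at 10 months against 2.81 and 2.92 at 8 weeks (2.83 ± 0.41, limma adjusted p = 0.0307). The drug efflux pump Abcb1b was at 5.88 and 5.73 on the basal arrays at 10 months against 4.14 and 3.97 at 8 weeks, with luminal arrays between 3.19 and 3.48 (1.87 ± 0.27). Both were basal gains with a low luminal level. Cdc27, a subunit of the anaphase-promoting complex, was lower in basal cells at 8 weeks, at 5.18 and 5.23 against 6.05 and 5.95, and higher at 10 months, at 6.74 and 6.58 against 5.66 and 5.70 (1.77 ± 0.27). These calls rest on few arrays: the count was 0 without either 10-month luminal array (1330 genes at an unadjusted p under 0.05 without luminal replicate 1 and 967 without luminal replicate 2), 0 without 10-month basal replicate 1 (1043) and 0 without 8-week basal replicate 2 (1473). It was 3 without either 8-week luminal array, 4 without 8-week basal replicate 1 and 8 without 10-month basal replicate 2. None of the 7 genes kept its call without each single array, and Hepacam2, which kept it without 4 of the 8 arrays, had adjusted p from 0.0749 to 0.184 in the 4 fits with a count of 0.

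**Figure D5:**
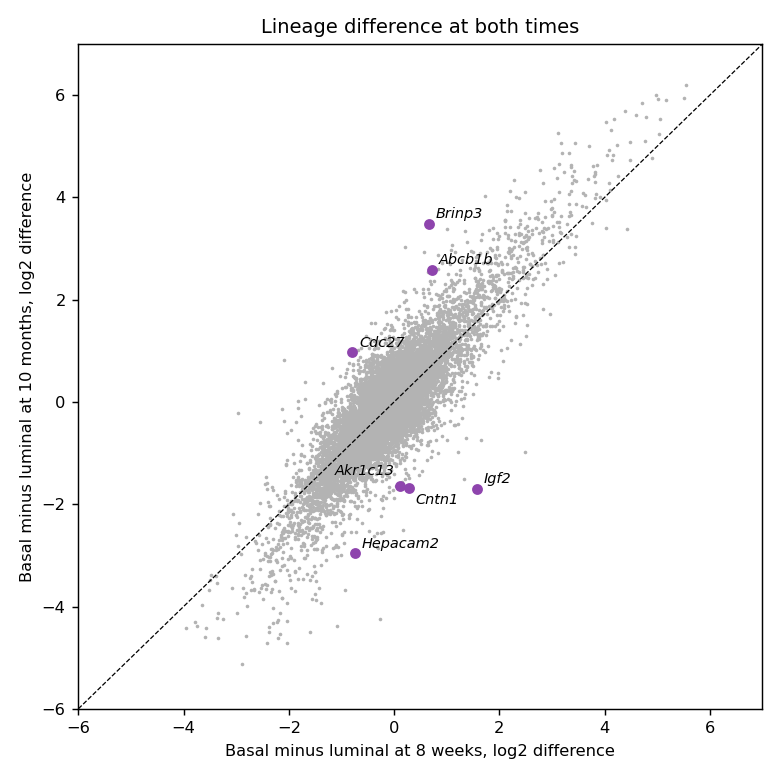
Each point is 1 of the 13150 genes tested, with the basal minus luminal log2 difference at 8 weeks on the horizontal axis and at 10 months on the vertical axis, and the dashed line marks equal differences. The 7 purple genes are those whose difference changed between the times, of which Igf2 and Cdc27 lie on opposite sides of 0 at the 2 times.

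The gap between the layers was last set against that of K5PIK cells of the same time. The K5PIK luminal cells came from K5CREERT2 mice, so that oncogene and Cre driver differ together from the YFP luminal cells. The gap differed in 940 genes (7.15%), more positive in YFP cells in 258 (1.96%) and more negative in 682 (5.19%). Of the 503 listed genes tested 30 were among them, 18 of these with a more negative gap in YFP cells. Krt6a was one, with means of 6.63 in basal and 6.53 in luminal K5PIK cells beside 6.61 and 6.22 on the YFP basal and 10.15 and 10.53 on the YFP luminal arrays (-4.03 ± 0.80, limma adjusted p = 0.0166). In K5PIK cells the layer means of Krt6a thus lay close together.

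Epgn showed the most negative change, with K5PIK means of 5.31 in basal and 4.48 in luminal cells against 4.83 and 5.09 on the YFP basal and 9.04 and 9.42 on the YFP luminal arrays (-5.10 ± 0.82). The diamine oxidase Aoc1 (-4.20 ± 1.06), Plac8 (-4.18 ± 0.37) and the claudin Cldn10 (-4.09 ± 0.85) followed. At the other end Sh2d5 (4.74 ± 0.93), Amtn (4.47 ± 0.66), the receptor partner Ramp3 (3.90 ± 0.87), the amino acid transaminase Bcat1 (3.78 ± 0.46) and the long non-coding RNA Neat1 (3.60 ± 0.80) had more positive gaps in YFP cells. Amtn was at 4.19 and 3.97 on the YFP basal and 3.87 and 4.10 on the YFP luminal arrays, so its change came with the K5PIK means of 4.63 in basal and 8.99 in luminal cells. Contractile genes included 1 such call, Mylk (2.37 ± 0.64), and Sox10 (1.82 ± 0.36) was another.

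The count of 940 depended on single arrays. Leaving out YFP luminal replicate 2 gave 65 and leaving out the other YFP luminal array 153. It was 85 without YFP basal replicate 1, 208 without K5PIK basal replicate 2 and 255 without K5PIK luminal replicate 1, and it rose to 2359 without K5PIK luminal replicate 2. Of the genes named here Amtn, Bcat1 and Plac8 passed whichever array was left out. Epgn lost it without YFP luminal replicate 2 (adjusted p = 0.0534), where Krt6a had 0.0822, Cldn10 0.0903, Sh2d5 0.0610, Sox10 0.0887, Ramp3 0.109, Neat1 0.118, Aoc1 0.139 and Mylk 0.143. Those 8 also lost it without YFP basal replicate 1.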

How the data were processed

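RNA of sorted mouse mammary cells was measured on 28 Affymetrix arrays, and the table deposited by the authors holds, in log2 units, 45141 probe sets for each. The submitters' processing notes name R 2.14.0, and the background correction and normalization are not given in the sources used here. Nor do they name a genome build, so genes carry no positions, and the promoters printed are those of RefSeq on GRCm38.p6. The deposited log2 values ran from 1.67 to 12.8 and were used without further scaling. Precision is limited by 2 arrays per group.

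The probe annotation had 28898 probe sets with 1 symbol, of which 28689 matched the reference by gene identifier, 551 with several symbols and 15692 without an entry. Each of 17097 genes was represented by the probe set whose mean over the 28 arrays was highest, a choice that concerned 7180 genes, and was tested if above the 40th percentile of its array on at least 2 arrays, which left 13150. Some genes are not reported here.

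The model of limma 3.58.1 in R 4.3.3 had 1 mean per group over the 16 sorted arrays (8 groups), with empirical Bayes moderation and Benjamini-Hochberg adjustment over all genes. The difference between the gaps was tested as a contrast of contrasts. On simulated data of this design, 100 genes were changed by 1 and 100 by 2 on the log2 scale, with independent noise for each gene. The 10-month fit recovered 54% of the former and 95% of the latter, with 5 of 12950 unchanged genes called. In the data 43.4% of genes were called, and basal replicate 2 lay above basal replicate 1 in 63.3% of genes. The simulated rates therefore need not carry over. There were 42 lists with 593 genes, 541 on the array and 503 tested. The members and lists were chosen with earlier results of these data known. Named are the 15 largest rises and falls with separate replicates, up to 6 called members per list, up to 3 members per list that went against it or did not pass, 12 fixed lineage genes, and for the differences between gaps the 5 largest of each sign. Genes outside this rule are named as such. Promoters were searched for the exact CArG box, 300 bases per promoter, and a gene counted if any of its promoters held a match. Counted by promoter, 1.63% of 32851 held one.

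Alternatives were fits on other arrays, no or a stricter filter, the mean of probe sets, a trended robust prior, quantile normalization, median centring, the replicate number as a block, the endothelial marker mean as a covariate, and leaving out each array.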

Additional observations from a re-analysis of the deposited data

Results flagged for a closer look

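The difference between basal and luminal cells was not the same at 10 months and at 8 weeks for 7 genes, by the test of the difference between the gaps (limma, adjusted p from 0.0268 to 0.0403). The gap at 10 months minus that at 8 weeks was 2.83 for Brinp3, 1.87 for Abcb1b and 1.77 for Cdc27, which moved towards basal cells. It was -3.26 for Igf2, -2.21 for Hepacam2, -1.95 for Cntn1 and -1.76 for Akr1c13, which moved towards luminal cells. In the fit of all 28 arrays 0 genes were called, and the calls rested on single arrays, as given above.

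The gap also differed between YFP and K5PIK cells at 10 months for the 10 genes given here, the 5 largest of each sign, by the same kind of test. The YFP gap minus the K5PIK gap was 4.74 for Sh2d5, 4.47 for Amtn, 3.90 for Ramp3, 3.78 for Bcat1 and 3.60 for Neat1. It was -5.10 for Epgn, -4.20 for Aoc1, -4.18 for Plac8, -4.09 for Cldn10 and -4.03 for Krt6a. The luminal cells of the 2 genotypes also differ in their Cre driver. Of these 10 genes only Epgn and Plac8 kept their call in the fit of all 28 arrays. Most of the 10 calls rested on single arrays, as given above.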

How the results depend on the processing

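The 5713 calls at 10 months stayed within 1.5 times under every fit on other arrays, filter, probe set rule, prior and scaling tried, and became 3328 with the endothelial covariate. Without single arrays they ran from 3539 to 4659, and those of at least 2-fold from 2497 to 3225. The 3987 calls at 8 weeks numbered 2319 when all 28 arrays were fitted, 1416 with the covariate, and ran from 2094 to 3298. For the gap between the times, 7 calls became 25 on the arrays of that contrast or the 8 YFP arrays (the same arrays), 0 on all 28 arrays (limma, 844 at an unadjusted p under 0.05), 16 with the trended robust prior and 12 with the covariate, and ran from 0 to 8. For the gap between YFP and K5PIK cells, 940 became 413 on the contrast's arrays, 169 on all 28 arrays and 493 with the covariate, and ran from 65 to 2359. The cause was not tested. With the replicate number as a block the counts were 6013 at 10 months, 41 for the gap between times and 1738 for the gap between genotypes. The labels do not say that a number marks a shared animal or batch. The YFP gates came from different mouse lines, and their same-numbered 10-month arrays deviated with r = -0.04. For the K5PIK gates, both from K5CREERT2 mice, r was 0.365, and over all pairs of sorted groups it ran from -0.0775 to 0.386. Of 185 named genes called, 157 kept their call and sign in every setting, and 0 reversed. In the fit of all 28 arrays Cd24a, Cdkn1c, Col6a3, Csn2, Dsg2, Epcam, Fzd6, Gabrp, Igf2, Itga6, Krt15, Ltf, Nrp2, Pigr, Slit2 and Sox10 no longer passed. With the covariate Cdh5, Cebpb, Col3a1, Emcn, H2-Aa, Itga1, Itgb1, Krt15, Ndufa4, Procr and Ramp3 did not, with the mean of probe sets Csn2 and Ndufb8 did not, and without a filter Csn2 did not. Of the genes named for the 2 differences between gaps, Epgn and Plac8 kept their call in the fit of all 28 arrays. Array data have no read depth, and the number of arrays limits the precision.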

Other observations

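Gene families defined by a shared symbol stem were counted after the values were seen, over 138 families with at least 10 genes tested, and carry no test. Several mitochondrial families had a larger share of genes lower in basal cells than the 25.8% of all genes: 31 of 46 genes of mitochondrial large ribosomal subunit proteins (Mrpl) were lower and 0 higher, with a median difference of -0.90, and 11 of 13 complex I genes of the Ndufa group, with a median of -1.02. Cytochrome oxidase genes (Cox) had 14 of 24 lower and 0 higher, and small ribosomal subunit genes of mitochondria (Mrps) 14 of 27 lower and 2 higher. Of 12 Timm genes of mitochondrial protein import, 4 were lower, 1 higher and 7 did not pass. Without basal replicate 1 the oxidative phosphorylation list had 7 lower genes in place of 17, and the families were not refitted without it. At 8 weeks 24 Mrpl genes and 7 Ndufa genes were lower. Proteasome genes (Psmb) had 7 of 10 lower, peroxisome genes (Pex) 9 of 13 and the trafficking genes Trappc 7 of 11. Higher in basal cells were collagens, 22 of 37 with a median of 1.71, and the secreted Adamts proteases, 7 of 11 with 0 lower. The ubiquitin proteases Usp were higher in 16 of 45 and lower in 3. At 8 weeks 4 of these were higher and 5 lower, and the difference was not tested for the family.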
